A study of Mus musculus with 2 samples.

Results

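The neurexins, neuroligins and leucine-rich repeat transmembrane proteins (LRRTMs) are adhesion molecules that meet across the synaptic cleft. Their messenger RNA was followed over cell classes of the mouse locus coeruleus, the pontine nucleus of noradrenergic neurons. The members are 9 of the 32285 genes in the count matrices, taken by symbol: the neurexins Nrxn2 and Nrxn3, the neuroligins Nlgn1, Nlgn2 and Nlgn3, and the LRRTMs Lrrtm1, Lrrtm2, Lrrtm3 and Lrrtm4. The choice set no condition on a measured value, but earlier results of these data were known when it was made. The samples are 2 droplet libraries, batches 1 and 2, which form a single untreated group. The mice were C57BL/6N wild types, male and female, 3 to 4 weeks old. All comparisons therefore ran between cell classes drawn from each library. The labels describe both methanol-fixed dissociated cells and sorted nuclei without assigning either to a library, and they do not give the number of mice pooled. The word cell stands for either below.

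Neurexins sit mainly in the presynaptic membrane and bind many partners in the postsynaptic membrane or in the cleft. Neuroligins and LRRTMs are postsynaptic ligands of neurexins that recruit receptors and scaffolds. In other neurons Nlgn1 and the LRRTMs are known from excitatory synapses, Nlgn2 from inhibitory synapses and Nlgn3 from both. Noradrenergic neurons of the locus coeruleus release noradrenaline largely from varicosities, many of them without a closely apposed postsynaptic density, and they receive glutamatergic and GABAergic input themselves. A UMI, the unique tag of a captured messenger RNA, does not show on which side of a synapse the protein was used, and tags near the 3' end do not separate long from short neurexin forms.

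The 304 barcodes of library 1 carried 5600693 UMIs, with a median of 11010, and the 2796 barcodes of library 2 carried 6895380, with a median of 1517. No barcode was shared. After filtering, 294 and 2680 cells remained, 2974 in all, beside 2578 stated by the series. The 9 members held 27250 UMIs in library 1 and 31412 in library 2. Each cell was assigned to a class by UMIs of marker genes, none of them a member, and class names mean only that a cell carried those markers. Noradrenergic cells (Dbh, Slc6a2, Th, Slc18a2) numbered 11 in library 1 and 74 in library 2, mesencephalic trigeminal cells 11 and 34, inhibitory cells 35 and 160, excitatory cells 37 and 73, and cerebellar granule cells 31 and 7. The excitatory class rests on Slc17a6 alone, and the 7 granule cells of library 2 gave only 7293 UMIs. Pan-neuronal marker genes summed to between 3923 and 9267 CPM (the UMIs of a gene per 1000000 UMIs of its class and library) in these 5 neuron classes, against 284 and 469 CPM in oligodendrocytes. Further classes were oligodendrocytes, their precursors, astrocytes, ependymal and vascular cells. Cells assigned to no class, 25.2% and 49.6% of the libraries, carried pan-neuronal markers at 4407 and 4032 CPM and so included many neurons. They held 2400 and 4020 of the 5994 and 6603 Lrrtm4 UMIs. Class assignments by Leiden clusters left 27 and 473 cells unassigned in place of 74 and 1329. These clusters were built from marker genes alone and named by the same marker lists, so they are not an independent check of the classes. Of 90 mean levels of members in a class, 56 then stayed within 1 SD between libraries, while 34 moved further. Lrrtm4 in noradrenergic cells stood at 72.9 and 101 CPM under that assignment, and at 1902 and 2120 CPM in excitatory cells.

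Several members are long genes, and some overlap others (GRCm38, GENCODE M21). Nrxn3 spans 1612.1 kb at chr12:88722876-90334935 on the plus strand, Nlgn1 906.2 kb at chr3:25426215-26332460 on the minus strand, and Lrrtm4 791.3 kb at chr6:80018877-80810143 on the plus strand. Nrxn2 lies at chr19:6418731-6544169 (plus), Nlgn2 at chr11:69823122-69837784 (minus) and Nlgn3 at chrX:101299168-101325963 (plus). Lrrtm1 (chr6:77242689-77257791, plus), Lrrtm2 and Lrrtm3 (chr10:63928472-64090277, minus) each lie inside an alpha-catenin gene on the opposite strand, Ctnna2, Ctnna1 and Ctnna3 in that order. Nrxn2, Nrxn3, Nlgn1 and Lrrtm4 overlap exons of antisense genes, and Nlgn3 shares exon sequence with Gm21986 on its own strand. The sources used here do not state whether counting used the strand, so reads of such pairs may not be told apart. Only Lrrtm2 shares exon sequence with its alpha-catenin gene, Ctnna1.

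Neurexin genes are known to start long and short transcripts from separate promoters. Windows at annotated starts of 4 members with called differences between neuron classes are shown, since their letters differ in CpG content. Each runs from 250 bases before to 50 bases after a RefSeq start (GRCm38.p6), 5' to 3' on the gene's strand, with every CG in capitals. The upstream start of Nrxn3, the first listed, is at chr12:88794254-88794553 and its internal start at chr12:89812233-89812532. Both lie inside the GENCODE gene span, which begins at chr12:88722876, so the upstream window is not at the gene's first base. The bases just before the upstream start are rich in C and T and end in AG, letters also found where an intron ends. Whether that start is a promoter was not tested, so its CG count below is not read as that of a promoter. Whether either start gives long or short transcripts was not tested. The first listed start of Nlgn1 is at chr3:26331860-26332159, that of Lrrtm4 at chr6:80018627-80018926, and the start of Lrrtm3 at chr10:64090206-64090505.
Nrxn3 upstream start: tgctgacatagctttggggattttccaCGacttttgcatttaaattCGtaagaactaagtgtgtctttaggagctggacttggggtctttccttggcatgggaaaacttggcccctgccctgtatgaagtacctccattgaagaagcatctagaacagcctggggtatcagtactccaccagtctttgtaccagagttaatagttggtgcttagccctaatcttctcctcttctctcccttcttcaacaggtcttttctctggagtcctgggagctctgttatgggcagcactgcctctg
Nrxn3 internal start: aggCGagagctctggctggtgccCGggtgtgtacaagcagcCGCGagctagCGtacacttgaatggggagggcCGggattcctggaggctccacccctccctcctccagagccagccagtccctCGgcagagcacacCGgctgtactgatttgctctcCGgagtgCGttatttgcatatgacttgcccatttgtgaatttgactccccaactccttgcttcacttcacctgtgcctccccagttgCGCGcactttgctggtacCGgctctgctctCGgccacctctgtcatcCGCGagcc
Nlgn1 first start: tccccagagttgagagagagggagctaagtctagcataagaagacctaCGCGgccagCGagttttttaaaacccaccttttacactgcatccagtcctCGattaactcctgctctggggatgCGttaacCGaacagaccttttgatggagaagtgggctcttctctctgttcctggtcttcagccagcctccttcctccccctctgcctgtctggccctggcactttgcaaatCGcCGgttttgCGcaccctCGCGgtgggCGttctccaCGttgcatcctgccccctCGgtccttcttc
Lrrtm4 first start: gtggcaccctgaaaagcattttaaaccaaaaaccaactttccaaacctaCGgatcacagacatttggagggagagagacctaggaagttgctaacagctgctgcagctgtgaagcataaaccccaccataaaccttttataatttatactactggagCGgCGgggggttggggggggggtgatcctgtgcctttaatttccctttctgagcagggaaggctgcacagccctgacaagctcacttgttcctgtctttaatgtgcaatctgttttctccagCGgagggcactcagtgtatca
Lrrtm3 start: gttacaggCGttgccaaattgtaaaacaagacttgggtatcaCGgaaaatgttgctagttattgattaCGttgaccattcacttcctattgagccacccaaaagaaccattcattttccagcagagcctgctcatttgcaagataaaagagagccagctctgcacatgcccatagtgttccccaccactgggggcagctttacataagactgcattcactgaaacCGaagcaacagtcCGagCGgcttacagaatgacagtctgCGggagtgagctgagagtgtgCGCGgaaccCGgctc
The upstream Nrxn3 window holds 2 CG pairs and the internal window 16, the Nlgn1 window 14, the Lrrtm4 window 4 and the Lrrtm3 window 10, against a median of 7 over 32851 promoter windows of the same length. Windows with at least as many CG pairs make up 85.88% of all windows for the upstream Nrxn3 start and 33.0% for the internal start. Second starts of Nlgn1 and Lrrtm4, not printed, hold 6 and 9 CG pairs, so each gene has a window on either side of the median. A further Nrxn3 start holds 6. The letters TATAAA, on either strand, occur in the printed Lrrtm4 window, not in that of its second start, and in 13.62% of all windows. Of the 9 members, 6 were found in the promoter table, with 10 starts. Which start was used in which class was not measured.

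**Figure D1:**
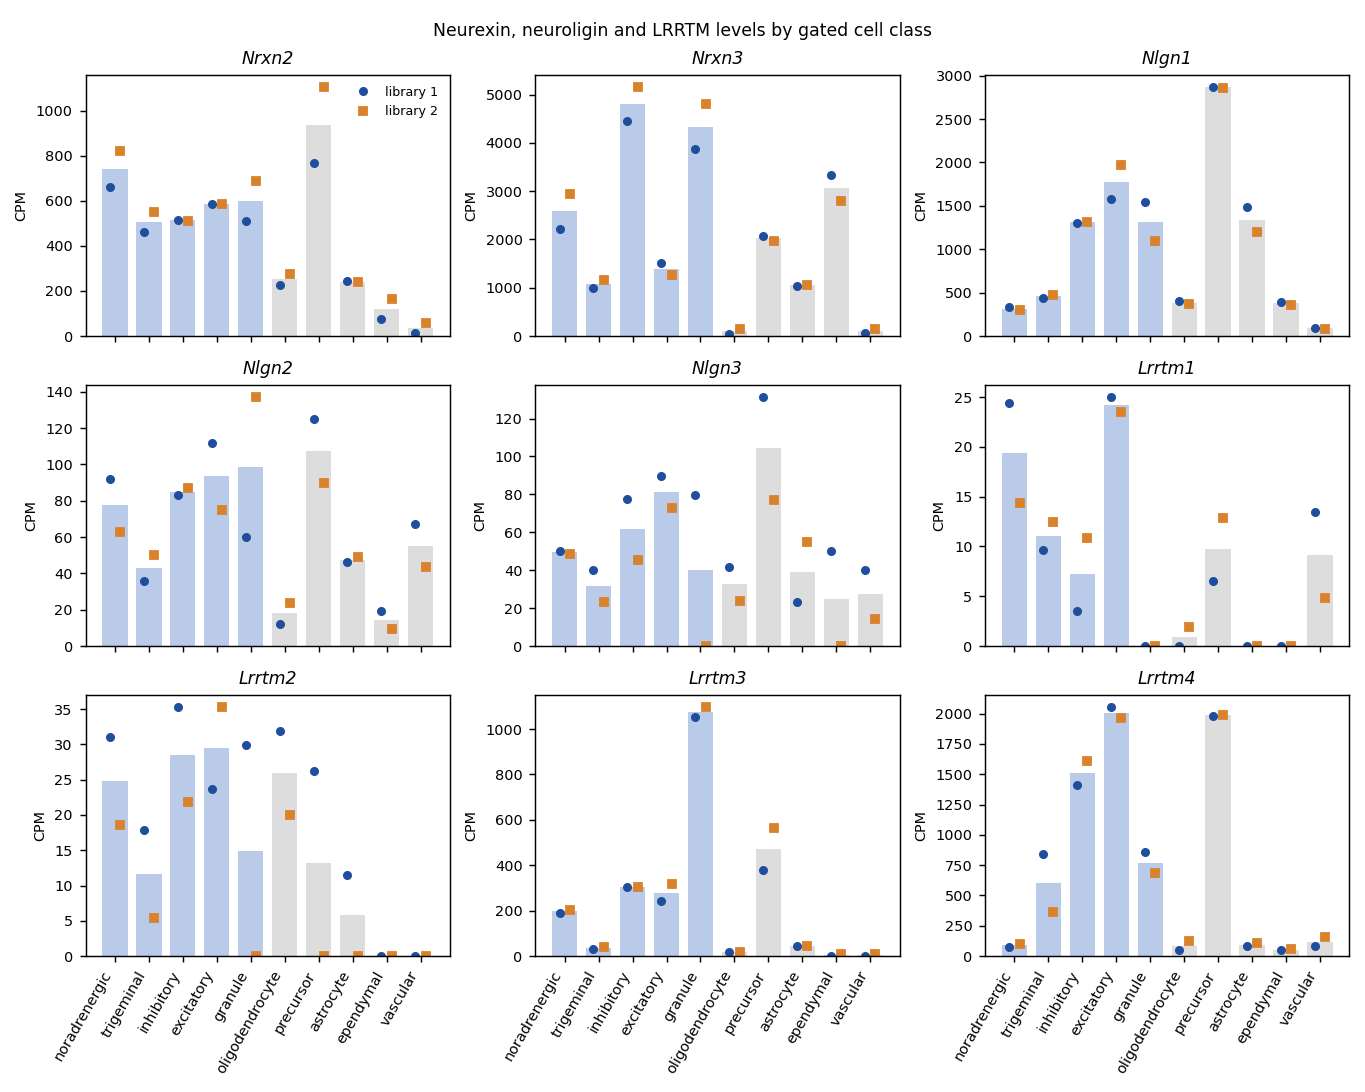
Level of each member (CPM, linear axis from 0) in 10 cell classes, neuron classes in blue and non-neuronal classes in grey. Points are the 2 libraries and bars their mean; Lrrtm4 sat near the vascular level in noradrenergic cells, and Nrxn3 reached its highest levels in inhibitory and granule cells.

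Nrxn3, a presynaptic neurexin, was high in inhibitory cells at 4453 CPM in library 1 and 5158 CPM in library 2. Granule cells held 3867 and 4799 CPM and noradrenergic cells 2224 and 2942 CPM. Excitatory cells held 1522 and 1273 CPM, and trigeminal cells, the sensory neurons of jaw muscle, 998 and 1168 CPM. Inhibitory and granule cells overlapped, while noradrenergic, excitatory and trigeminal cells followed as separate steps. In library 1 the median inhibitory cell had 4488 CPM and the lower quartile lay at 2893 CPM, against a median of 990 CPM and an upper quartile of 2214 CPM in excitatory cells. The quartile ranges of the 2 classes thus did not meet. Inhibitory cells lay above the mean of the other neuron classes by 1.36 ± 0.30 on the log2 scale (SE, adjusted p = 0.000161), and trigeminal cells lay below it by a log2 difference of -1.34 ± 0.36 (adjusted p = 0.00103). For noradrenergic cells the value was 0.18 ± 0.32 (adjusted p = 0.753). Excitatory cells did not pass at -0.87 ± 0.34 (adjusted p = 0.0935), but did without trigeminal and granule cells in the fit (-1.32, adjusted p = 2.42e-05).

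Nrxn2 was the flattest member over the neuron classes. It stood at 662 and 818 CPM in noradrenergic cells, 462 and 551 in trigeminal, 515 and 510 in inhibitory, 587 and 587 in excitatory and 508 and 686 in granule cells. Noradrenergic cells had the highest level in each library, yet their log2 difference of 0.45 ± 0.28 did not pass the test (adjusted p = 0.246). DESeq2 gave 0.59 (adjusted p = 0.00118), and a fit of noradrenergic against all other gated neurons alone gave 0.43 (adjusted p = 0.0287).

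Nlgn1, the neuroligin of excitatory synapses, was lowest among neurons in noradrenergic cells, at 332 and 297 CPM. Trigeminal cells held 440 and 478 CPM, inhibitory cells 1306 and 1313 CPM, excitatory cells 1583 and 1971 CPM, and granule cells 1540 and 1097 CPM. Both noradrenergic sums lay below both sums of every other neuron class. The log2 difference was -1.80 ± 0.35 (adjusted p = 5.28e-06) for noradrenergic and -1.07 ± 0.34 (adjusted p = 0.00733) for trigeminal cells against the other neuron classes. Excitatory cells lay above the others by 1.37 ± 0.29 (adjusted p = 6.65e-05). For inhibitory cells the value was 0.83 ± 0.29 (adjusted p = 0.0554), and DESeq2 put it past the threshold (0.75, adjusted p = 0.00712).

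Among the 10 classes only vascular cells, at 94.1 and 81.9 CPM, lay below the noradrenergic level. Oligodendrocytes, at 402 and 369 CPM, and ependymal cells, at 397 and 363 CPM, lay above it in both libraries. All 11 noradrenergic cells of library 1 had Nlgn1 UMIs, 6 to 70 each, and 58 of 74 had them in library 2.

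Nlgn2, the neuroligin of inhibitory synapses, and Nlgn3 had few UMIs. Nlgn2 stood at 92.2 and 63.1 CPM in noradrenergic, 35.7 and 49.9 in trigeminal, 82.9 and 87.1 in inhibitory, 112 and 75.2 in excitatory and 59.8 and 137 CPM in granule cells, the last value from 1 UMI. Nlgn3 stood at 50.01 and 48.7 CPM in noradrenergic, 39.9 and 23.2 in trigeminal, 77.7 and 45.4 in inhibitory, 89.5 and 72.8 in excitatory and 79.7 and 0 CPM in granule cells. Although granule cells held no Nlgn3 UMI in library 2, trigeminal cells had the lowest mean level over the libraries for both genes. Their log2 differences were -0.88 ± 0.32 for Nlgn2 (adjusted p = 0.0245) and -0.999 ± 0.34 for Nlgn3 (adjusted p = 0.0134). Neither call held without the filter on low counts (adjusted p = 0.0962 and 0.0566), the Nlgn2 call was lost with DESeq2 (adjusted p = 0.0536), and the Nlgn3 difference was -0.17 in library 2 alone. Nlgn2 was not set apart in inhibitory cells (0.38 ± 0.29, adjusted p = 0.551).

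Lrrtm4, an LRRTM that binds heparan sulphate proteoglycans as well as neurexins, showed the widest difference between noradrenergic and other neurons among the members. Its level was 74.5 and 103 CPM in noradrenergic cells, against 844 and 360 in trigeminal, 1414 and 1612 in inhibitory, 2055 and 1961 in excitatory and 857 and 686 CPM in granule cells. Every sum of another neuron class lay above both noradrenergic sums. The log2 difference was -3.64 ± 0.40 (adjusted p = 5.17e-18), a 12.5-fold lower level. It was -3.91 in library 1 alone and -2.84 in library 2 alone, and the adjusted p ran from 5.39e-61 to 5.08e-09 over the alternatives. Against inhibitory and excitatory cells only, a comparison added after the data were seen, it was -4.30 ± 0.31 (adjusted p = 1.23e-38) for Lrrtm4 and -2.26 ± 0.27 (adjusted p = 7.18e-15) for Nlgn1. Vascular cells held Lrrtm4 at 80.7 and 159 CPM and oligodendrocytes at 46.6 and 122 CPM, so the noradrenergic level lay within the range of these non-neuronal classes.

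Excitatory and inhibitory cells stood high for Lrrtm4, by 2.02 ± 0.27 (adjusted p = 1.62e-11) and 1.53 ± 0.28 (adjusted p = 2.67e-06) over the other neuron classes. Trigeminal cells had a large gap between libraries and did not pass (-0.13 ± 0.31, adjusted p = 0.846); against all other gated neurons alone, where large classes weigh more, the value was -0.91 (adjusted p = 0.0152). Granule cells differed among themselves. In library 1, 17 of 31 granule cells had no Lrrtm4 UMI, while 1 cell held 60 of the 172 UMIs.

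Lrrtm3 marked the ends of the neuron classes at granule and trigeminal cells. It stood at 1052 and 1097 CPM in granule cells, 305 and 305 in inhibitory, 242 and 317 in excitatory, 189 and 205 in noradrenergic and 31.6 and 39.2 CPM in trigeminal cells. Granule cells were above the other neuron classes by 2.62 ± 0.28 (adjusted p = 1.97e-18) and trigeminal cells lay below them by a log2 difference of -3.32 ± 0.35 (adjusted p = 2.02e-19). In library 2 the granule level came from 8 UMIs, the difference was 1.28 in that library alone, and the granule call was lost when granule cells were fitted against all other gated neurons alone (1.95, adjusted p = 0.642). Inhibitory cells did not pass at 0.58 ± 0.26 (adjusted p = 0.172), but did without granule cells in the fit (1.31, adjusted p = 4.71e-07). Excitatory cells did not pass at 0.38 (adjusted p = 0.477), but did likewise (1.10, adjusted p = 5.11e-05). In library 1, 27 of 31 granule cells had Lrrtm3 UMIs, while 5 of 11 trigeminal cells had none. The host gene on the opposite strand, Ctnna3, did not follow Lrrtm3. Ctnna3 held 1139 and 1090 CPM in oligodendrocytes, where Lrrtm3 held 19.6 and 18.1 CPM.

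Lrrtm1 and Lrrtm2 (chr18:35209003-35215024, minus strand) were close to the limit of detection. Lrrtm1 held 82 and 73 UMIs in all barcodes and did not pass the filter on low counts, so it has no test. Its levels were 24.5 and 14.3 CPM in noradrenergic, 9.62 and 12.5 in trigeminal, 3.53 and 10.9 in inhibitory and 25.0 and 23.5 CPM in excitatory cells. No Lrrtm1 UMI was seen in granule cells, which at a limit of 3 UMIs allows up to 14.95 CPM in library 1 and 411 CPM in library 2. Lrrtm2 held 31.1 and 18.6 CPM in noradrenergic, 17.9 and 5.35 in trigeminal, 35.3 and 21.8 in inhibitory and 23.7 and 35.2 CPM in excitatory cells. Both trigeminal sums lay below both sums of these other 3 classes, which overlapped among themselves, but no class passed the test. The trigeminal difference of -1.14 ± 0.48 was nearest (adjusted p = 0.0562), and it passed without granule cells in the fit (-1.19, adjusted p = 0.0357).

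**Figure D2:**
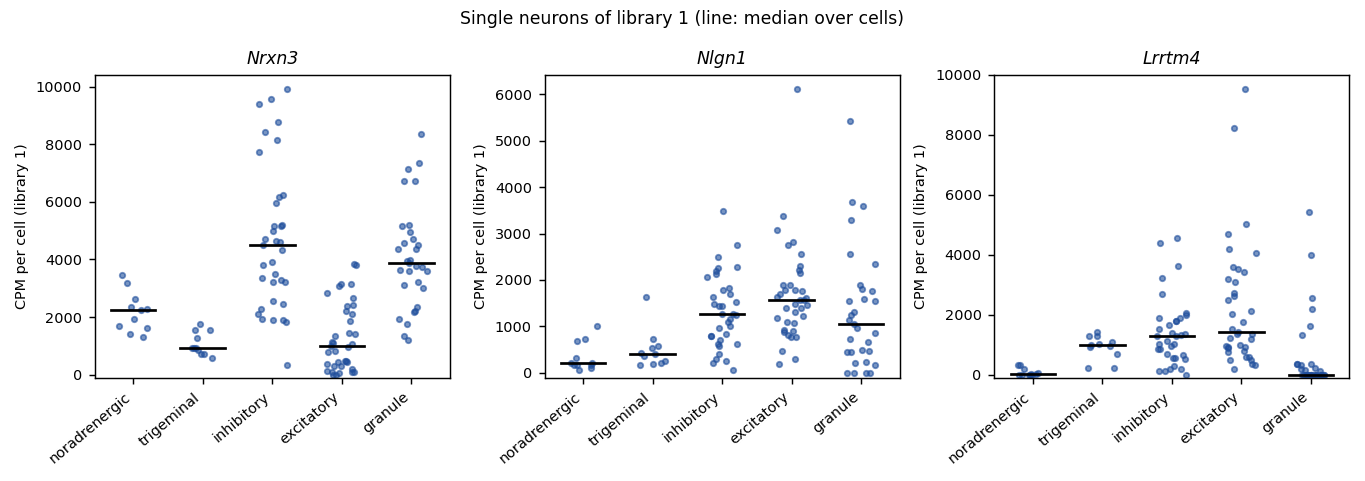
CPM of Nrxn3, Nlgn1 and Lrrtm4 in single neurons of library 1, 1 point per cell, with the class median as a line. Lrrtm4 was at 0 in 5 of 11 noradrenergic cells and at or above 175 CPM in all excitatory cells, while Nrxn3 ran from 1292 to 3465 CPM over the noradrenergic cells.

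Single noradrenergic cells of library 1 were deep, between 37288 and 128440 UMIs, so that few UMIs could be read cell by cell. The 5 deepest held 1, 0, 1, 6 and 0 Lrrtm4 UMIs, and the deepest, with 128440 UMIs, also held 246 of Nrxn3 and 7 of Nlgn1. Most of the class was thus without more than a few Lrrtm4 UMIs at a depth that gave every cell at least 84 of Nrxn3. Of the 67 Lrrtm4 UMIs, 59 came from 3 cells with 23, 23 and 13. Those 3 cells held 584, 302 and 390 UMIs of the noradrenergic markers. The first also had 14 UMIs of oligodendrocyte markers, 5 of inhibitory, 5 of granule and 2 of excitatory markers. The second had 7 of the excitatory marker, 4 of trigeminal and 2 of oligodendrocyte markers. The third had 1 inhibitory and 1 trigeminal marker UMI and none of the oligodendrocyte, excitatory or granule markers. The other 8 cells held at most 2 oligodendrocyte, 2 trigeminal, 1 inhibitory, 1 excitatory and 1 granule marker UMIs. The first and second cells also held 53 and 70 of the 299 Nlgn1 UMIs of the class, while 1 of the other 8 cells held 59. The part of other cells' RNA in these counts was not tested.

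Detection was compared at equal depth by thinning each cell to 1000 UMIs and leaving out shallower cells. A UMI of Lrrtm4 was then seen in 1 of 11 noradrenergic cells of library 1 (9.09%, exact 95% interval 0.23 to 41.3) and in 5 of 72 of library 2 (6.94%, 2.29 to 15.5). Excitatory cells gave 28 of 37 (75.7%, 58.8 to 88.2) and 45 of 72 (62.5%, 50.3 to 73.6). Oligodendrocytes gave 2 of 38 and 51 of 515 (9.90%) and vascular cells 2 of 10 and 10 of 76 (13.2%). The noradrenergic shares lay below the vascular shares in both libraries, and no expression is read from them. Without thinning, 6 of 11 and 16 of 74 noradrenergic cells had a Lrrtm4 UMI, at median depths of 80143 and 7947 UMIs, while the oligodendrocyte medians were 9790 and 1539.

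For Nrxn3, noradrenergic cells stood above excitatory cells. At 1000 UMIs, 10 of 11 and 63 of 72 noradrenergic cells (87.5%, 77.6 to 94.1) had a UMI. Inhibitory cells gave 33 of 35 and 145 of 155 (93.5%, 88.5 to 96.9), and excitatory cells 23 of 37 and 38 of 72 (52.8%, 40.7 to 64.7). Oligodendrocytes gave 1 of 38 and 71 of 515 (13.8%), far under each neuron class. Nlgn1 was seen in 1 of 11 and 16 of 72 noradrenergic cells (22.2%, 13.3 to 33.6) and in 29 of 37 and 58 of 72 excitatory cells (80.6%, 69.5 to 88.9). Vascular cells gave 2 of 10 and 4 of 76 (5.26%), and oligodendrocytes 9 of 38 and 152 of 515 (29.5%), so the noradrenergic share lay above the vascular share in library 2 but not in library 1. These intervals cover counting error only.

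**Figure D3:**
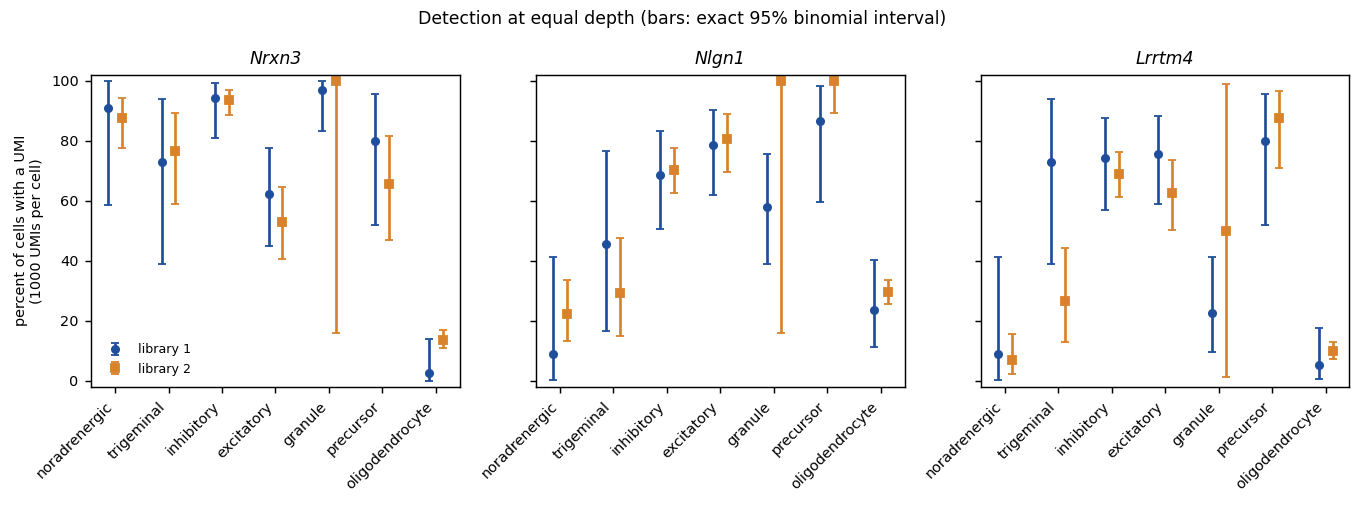
Percent of cells with at least 1 UMI after thinning each cell to 1000 UMIs, with exact 95% binomial intervals, for 5 neuron classes and 2 non-neuronal classes. Noradrenergic cells sat with oligodendrocytes for Lrrtm4 and with inhibitory cells for Nrxn3.

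**Figure D4:**
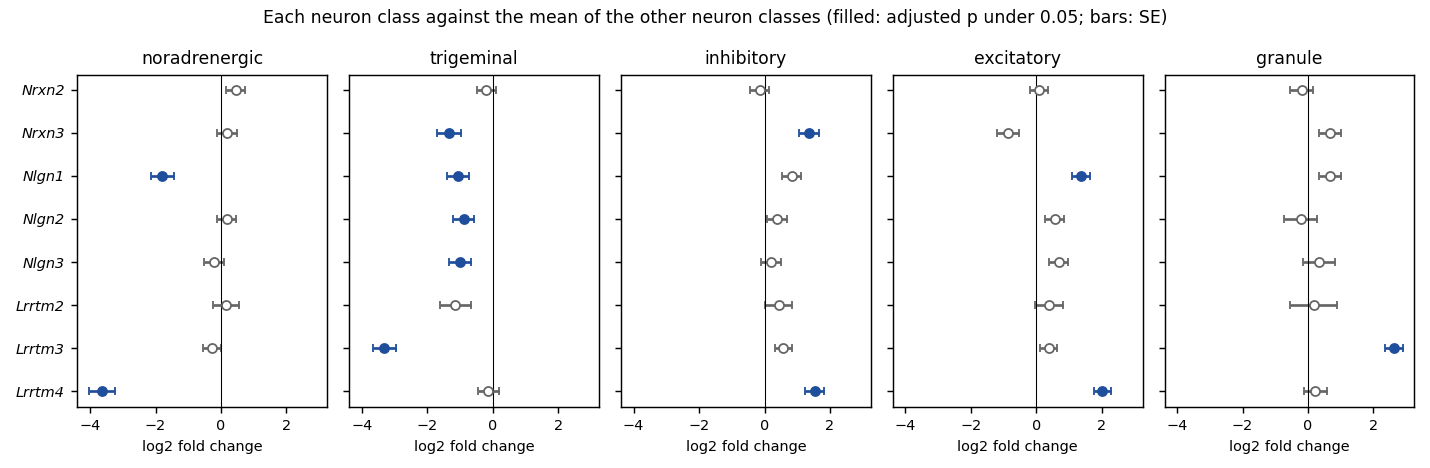
Log2 difference of each neuron class from the mean of the other neuron classes for the 8 members tested, with SE bars; filled points passed an adjusted p of 0.05. Noradrenergic cells stood apart at Lrrtm4 and Nlgn1, trigeminal cells at Lrrtm3, Nrxn3 and the neuroligins. The trigeminal calls of Nlgn2 and Nlgn3 rest on few UMIs and were lost without the filter on low counts.

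In noradrenergic cells 2 of 8 members tested passed the test, Lrrtm4 and Nlgn1, both lower, where 27.2% of all 9364 genes tested passed, 18.3% as higher and 8.87% as lower. The median member of the LRRTMs was at -0.27 and of the neuroligins at -0.22, against 0.10 over all genes. In trigeminal cells 5 of 8 passed, all lower, against 29.6% of all genes, 18.2% higher and 11.4% lower. These 5 were Lrrtm3, Nrxn3 and all 3 neuroligins. In inhibitory cells 2 of 8 passed as higher, Lrrtm4 and Nrxn3, and none as lower, against 8.23% of all genes, 6.91% higher and 1.32% lower. In excitatory cells 2 of 8 passed as higher, Lrrtm4 and Nlgn1, and none as lower, against 9.74%, 7.97% higher and 1.77% lower. In granule cells 1 of 8 passed, Lrrtm3 as higher, against 15% of all genes, 7.37% higher and 7.66% lower. The balance of higher and lower calls over all genes depended on the fit. Where each class was fitted against all other gated neurons alone, 16.2% of genes were higher and 16.1% lower in noradrenergic cells, 15.5% and 16.1% in trigeminal cells, 9.56% and 12.6% in inhibitory cells and 4.99% and 6.91% in excitatory cells. Without trigeminal and granule cells in the fit, 5.97% were higher and 5.91% lower in inhibitory cells. With 8 members tested, these shares are descriptions.

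The direct comparison of inhibitory with excitatory cells set apart Nrxn3 alone among the 8 members tested, where 1.27% of all genes passed, 0.587% higher and 0.683% lower in inhibitory cells. Granule cells, which overlapped inhibitory cells for Nrxn3, were not part of it. Neither were trigeminal cells, which carried the excitatory marker Slc17a6 at 158 and 112 CPM. Nrxn3 was 3.44-fold higher in inhibitory cells (log2 1.78 ± 0.42, adjusted p = 0.00274), and the log2 difference was 1.54 in library 1 alone and 2.02 in library 2 alone. Nlgn1 (-0.43 ± 0.39), Lrrtm4 (-0.40 ± 0.38) and Nlgn3 (-0.39 ± 0.36) had lower values in inhibitory cells that did not pass (adjusted p = 0.974 each). Nlgn2 was at -0.14 ± 0.34 (adjusted p = 1), which does not show equal levels.

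Against the mean of 5 non-neuronal classes, neurons were higher in 7 of 8 members tested, where 40.8% of all genes passed, 24.5% higher and 16.2% lower. The log2 differences were 1.80 ± 0.20 for Nrxn3 (adjusted p = 7.04e-18), 1.44 ± 0.20 for Nrxn2 (adjusted p = 1.2e-11) and 1.89 ± 0.21 for Lrrtm4 (adjusted p = 2.03e-17). Lrrtm3 was at 3.08 ± 0.29 (adjusted p = 1.94e-25). The single-library values were 2.41 and 1.25 for Lrrtm4 and 3.11 and 2.19 for Lrrtm3, in library 1 and library 2. Lrrtm2 passed at 2.88 ± 0.72 (adjusted p = 0.000302), but ependymal and vascular sums held no Lrrtm2 UMI, single libraries gave 1.22 and 1.13, and a fit of summed neurons against summed non-neuronal cells gave 0.42 (adjusted p = 0.33). Oligodendrocytes held Lrrtm2 at 31.9 and 20.1 CPM, within the range of noradrenergic and inhibitory cells. Nlgn2 passed at 0.71 ± 0.25 (adjusted p = 0.0133) and Nlgn3 did not (0.31 ± 0.25, adjusted p = 0.354). Nlgn1 passed narrowly at 0.50 ± 0.19 (adjusted p = 0.0265) and lost the call under 4 alternatives.

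Oligodendrocyte precursors, glia that receive synapses from neurons, held several members at neuronal levels. They had Nlgn1 at 2870 and 2863 CPM, above both sums of every neuron class, Lrrtm4 at 1983 and 1990 CPM and Nrxn2 at 768 and 1104 CPM. This class also carried pan-neuronal markers at 2660 and 1143 CPM, Rbfox3 among them at 269 and 38.5 CPM. Of its marker list, Lhfpl3 held 492 and 263 UMIs (3231 and 3377 CPM), against 41 and 30 for Pdgfra and 36 and 46 for Cspg4. The whole list also stood at 434 and 523 CPM in inhibitory cells and at 538 and 660 CPM in excitatory cells. In the 12 of 15 and 43 of 68 cells with a UMI of Pdgfra or Cspg4, the defining precursor markers, Nlgn1 stood at 4117 and 3147 CPM and Lrrtm4 at 2239 and 2002 CPM. The levels were thus as high in cells with those markers, whose pan-neuronal level is not given here. Mature oligodendrocytes held Nlgn1 at 402 and 369 CPM and Nrxn3 at 46.6 and 154 CPM.

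Ependymal cells, the ciliated lining of the ventricle, held Nrxn3 at 3344 and 2795 CPM, at the level of noradrenergic neurons. Nlgn1 stood at 397 and 363 CPM there, above both noradrenergic sums, Nrxn2 at 77.1 and 162 CPM and Lrrtm4 at 46.3 and 57.2 CPM, and no Lrrtm1 or Lrrtm2 UMI was seen. Pan-neuronal markers summed to only 181 and 334 CPM in these cells. Nrxn3 UMIs occurred in 16 of 16 and 41 of 43 ependymal cells, and after thinning in 15 of 16 and 36 of 40. Astrocytes, which are known to carry neuroligins, held Nlgn1 at 1489 and 1196 CPM and Nrxn3 at 1039 and 1062 CPM, with pan-neuronal markers at 404 and 439 CPM. Lrrtm4 stood at 80.8 and 110 CPM there.

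Partner genes of the same adhesion system were counted in lists by role. In noradrenergic cells their counts stand beside 18.3% of all genes higher and 8.87% lower, so that 1 call in a short list is near the background. Among secreted ligands of neurexins, 6 of 10 could be tested. In noradrenergic cells 2 were higher and 2 lower, with a median of -1.05 against 0.10 over all genes. Nxph4, a neurexophilin, was higher by 3.86 ± 0.29 (adjusted p = 2.31e-37), at 322 and 252 CPM in noradrenergic cells against 47.2 to 77.7 CPM in inhibitory and excitatory cells, and by 2.75 in library 2 alone. The mean of the other neuron classes includes trigeminal cells, where Nxph4 was itself called lower. In inhibitory cells Nxph4 was called higher than in the other neuron classes, so a higher call was not particular to noradrenergic cells. Its relative Nxph1 was lower by a log2 difference of -4.46 ± 0.46 (adjusted p = 1.84e-20), with 5.56 and 10.0 CPM in noradrenergic cells against 304 to 532 CPM in inhibitory and excitatory cells, and stood at -3.83 and -3.54 in library 1 and library 2 alone. The differences of the 2 neurexophilins thus ran in opposite directions. C1ql1, a C1q-like ligand, had 49 and 13 UMIs in noradrenergic cells against 0 to 3 in every other neuron class and library (adjusted p = 3.22e-11), a call lost with DESeq2 (adjusted p = 0.0792).

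Among other membrane partners of neurexins 1 of 9 was higher and 3 lower in noradrenergic cells, with Clstn2 and Adgrl2 among the lower genes. Clstn2, a calsyntenin, stood at 70.0 and 57.3 CPM in noradrenergic cells against 181 to 611 CPM in inhibitory and excitatory cells (-1.98 ± 0.32, adjusted p = 8.98e-09, and -0.91 in library 2 alone). Of 11 tested LAR-type phosphatases and their ligands 1 was higher and 4 lower, led by Il1rapl1 (-2.89 ± 0.38, adjusted p = 6.74e-13). Of 4 netrin-G pair genes 1 was lower, Lrrc4c (-3.88 ± 0.45, adjusted p = 3.29e-16, and -3.04 in library 1 alone), with 35.6 and 12.9 CPM in noradrenergic cells against 862 to 1169 CPM in inhibitory and excitatory cells. Of the neuroligin blockers Mdga1 was lower (-1.76 ± 0.43, adjusted p = 0.000355, and -0.87 in library 2 alone) and Mdga2 did not pass. None of 4 inhibitory postsynaptic partners passed.

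Among excitatory postsynaptic scaffolds, 5 of 7 were lower in trigeminal cells, with a median of -1.07 against 0.05 over all genes, of which 11.4% were lower. Shank2 had 1 and 3 UMIs in trigeminal cells, or 1.37 and 5.35 CPM, and was lower there than in the other neuron classes (adjusted p = 2.52e-20). In noradrenergic cells 1 scaffold was higher, Shank2, and 1 lower, Magi2. Shank2 stood at 137 and 211 CPM in noradrenergic cells against 184 and 231 CPM in inhibitory and 180 and 209 CPM in excitatory cells and 74.8 and 0 CPM in granule cells. Lrrc4c was low in trigeminal cells too, at 5.50 and 26.8 CPM (adjusted p = 5.8e-20). In excitatory cells 5 of 6 secreted ligands and 4 of 7 scaffolds were higher, beside 7.97% of all genes. The ligands had a median of 2.14 against 0.12 over all genes, led by the cerebellins Cbln2 and Cbln1. Inhibitory cells were lower than excitatory cells for both, Cbln2 at 8.82 and 10.9 against 73.7 and 54.0 CPM (adjusted p = 0.000241) and Cbln1 at 15.9 and 0 against 42.1 and 51.7 CPM (adjusted p = 0.0112). DESeq2 gave neither an adjusted p, and the Cbln1 call was lost with clustered classes (adjusted p = 0.423). In inhibitory cells 2 of 6 secreted ligands, 3 of 9 membrane partners, 3 of 7 excitatory postsynaptic scaffolds (Shank2, Shank1 and Dlg3) and 1 of 4 inhibitory postsynaptic partners were higher, beside 6.91% of all genes. In granule cells 1 of 6 secreted ligands was higher, Cbln1, beside 7.37% of all genes.

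The genes whose levels over the 10 classes were most like a member's were chosen by Pearson r of log2(CPM + 10) among 7317 genes. For Lrrtm4 they included the muscarinic receptor gene Chrm3 (r = 0.976) and the ryanodine receptor gene Ryr3 (0.965). Nrxn3 was most like the calcium channel gene Cacna1d (0.942), Nlgn1 like Nol4 (0.92), with the glutamate receptor gene Grin3a (0.912) close behind, and Lrrtm3 like Tenm1 (0.961), which encodes a teneurin. Nrxn2 was most like Map3k12 (0.946), Nlgn2 like Ppp2r5e (0.955) and Nlgn3 like Cspg5 (0.95). Between members r ran from 0.393 for Nrxn3 with Nlgn3 to 0.843 for Nlgn2 with Lrrtm3. The 10 points share libraries, depth and the same cells, and the values are descriptions.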

How the data were processed

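Both matrices were deposited by the authors as whole-number UMI counts per gene and barcode, with no normalization. Per the file headers they came from Cell Ranger 6.1.2, while the submitters' processing notes list Cell Ranger 7.0 and Seurat beside the builds GRCm38 and mm10. Whether intronic reads were counted is not given in the sources used here. The smallest barcodes had 4208 UMIs in library 1 and 500 in library 2.

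Kept barcodes had 300 genes or more and no more than 20% mitochondrial UMIs, and the highest Scrublet doublet scores were removed (0.8% per 1000 barcodes). A cell passed 1 of 11 marker lists with at least 3 UMIs from 2 genes (inhibitory and excitatory: 2 UMIs from 1 gene) at 2 times its library's share or more, and stayed unassigned where another passed list reached a ratio of 0.5 to the best. Microglia, with 1 cell in library 1, were left out. UMIs were summed per class and library (10 classes, 20 sums) and fitted together in edgeR 4.0.16 (quasi-likelihood, two-sided) after filterByExpr and TMM scaling. The library entered as a block, which leaves 9 residual degrees of freedom. P-values were adjusted by Benjamini-Hochberg over the 9364 tested genes and called under 0.05. The block is the library itself, since all classes of a number came from the same preparation. The p-values rest on how far class differences disagreed between the 2 libraries, pooled over the 10 classes and in effect over genes. For the members, estimate, SE and p-value are related as under a normal reference, with no visible part of the 9 residual degrees of freedom. The p-values thus do not measure a member's own disagreement between libraries, and very small ones overstate what 2 libraries can show. The disagreement between libraries may be technical, and it is not the spread between mice. For a single library, the fold is the difference of log2 CPM values computed with 2 prior counts. DESeq2 1.42.0 was an alternative. R 4.3.3, limma 3.58.1, scanpy 1.11.5, anndata 0.12.19, Python 3.11.15, numpy 2.4.6, pandas 2.3.3, scipy 1.17.1, igraph 0.11.9 and matplotlib 3.10.9 were used.

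Of 32285 features, 32158 (99.61%) were found in GENCODE M21. All members were to be named, and of each partner list the genes that passed with the largest changes, up to 3 per comparison. Some genes that this rule or the likeness rule picked are not reported here. The members, lists and comparisons were chosen with earlier results of these data known. The fit was tested on simulated data with a single spread for all genes and no class differences beyond the genes changed on purpose. That setting is simpler than these sums, so it does not give the error rate of the fit on them.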

Additional observations from a re-analysis of the deposited data

How the results depend on the processing

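Over other tools, gates, filters and fits, 581 of 632 member differences kept their direction and their side of the threshold. Lrrtm4 and Nlgn1 in noradrenergic cells kept both under every alternative that gave a test. Neurons against non-neuronal classes reversed for Nlgn1 with Leiden clusters (-0.012, adjusted p = 1), and its call was lost with the looser gate (0.20, adjusted p = 0.376), without doublet removal (0.37, adjusted p = 0.15) and with 4 sums, that is only the summed classes of a comparison (0.29, adjusted p = 0.283). The cause was not tested. The other sign changes were of values that passed in neither fit. With Leiden clusters, Nrxn2 in excitatory cells was at -0.083, Nlgn2 and Lrrtm2 in granule cells at 0.059 and -0.341, and Nlgn2 in inhibitory against excitatory cells at 0.056. With the looser gate, Nlgn2 and Lrrtm2 in granule cells were at 0.292 and -0.072, and Lrrtm2 in inhibitory against excitatory cells at -0.017. Lrrtm4 in granule cells was at -0.056 without the low-count filter, -0.78 with 4 sums and -0.001 with DESeq2, and Lrrtm2 at -0.077 without the filter. Lrrtm3 in noradrenergic cells was at 0.481 with the stricter gate and 0.443 without granule cells. Without trigeminal and granule cells, Nlgn2, Nrxn3 and Lrrtm2 in noradrenergic cells were at -0.197, -0.011 and -0.166, Nlgn2 and Nlgn3 in inhibitory cells at -0.004 and -0.05, and Nrxn2 in excitatory cells at -0.072. Counts of genes called moved by over 1.5 times as follows. Inhibitory against the other neuron classes called 771 genes, 2183 with 4 sums and 1365 without granule cells. Excitatory against the others called 912, and 464 without trigeminal and granule cells. Granule against the others called 1407, and 61 with 4 sums. Inhibitory against excitatory called 119, and 73 with the looser gate, 342 with 4 sums and 57 with DESeq2. Neurons against non-neuronal classes called 3818, and 6188 with 4 sums. There, higher and lower calls were 2298 and 1520, but 2232 and 2394 with DESeq2, and the median of all genes was 0.07 and -0.05. In noradrenergic cells that median was 0.10, and 0.23 with DESeq2. Leaving granule cells out, or trigeminal and granule cells, and limiting precursors to cells with Pdgfra or Cspg4 were chosen after seeing the data.

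Without the replicate block, which pairs classes of 1 library, noradrenergic cells differed in 2314 genes in place of 2543, and 56 of 56 member differences kept their call. With 1 library left out there is no test. No called member difference changed sign then, 15 that had not passed did, and 8 of 56 moved by more than the SD between the single-library values in library 1 alone and 32 of 56 in library 2 alone. The stricter gate left 1 granule cell in library 2, so that comparison was not run there. In 7 of 9 members the same neuron class was highest in both libraries, and in 5 with Leiden clusters and 8 with the stricter gate. Thinned to 5000 UMIs, the Lrrtm4 share in noradrenergic cells of library 2 was 13.1% in place of 6.94%. Depth limits Lrrtm1, Lrrtm2, Nlgn2 and Nlgn3, and all granule values of library 2.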

Other observations

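Inhibitory cells were divided by a UMI of Slc6a5, the glycine transporter gene of glycinergic neurons, after the data were seen and without a test. The 11 and 29 cells with such a UMI held Nrxn3 at 3537 and 5657 CPM, against 4935 and 5023 CPM in the 24 and 131 cells without one, so the direction differed between libraries. Lrrtm4 stood at 1182 and 1286 CPM with a Slc6a5 UMI, against 1535 and 1700 CPM without. Median depths were 16138 and 3871 UMIs with one, against 14258 and 2862 UMIs without. Cells without an Slc6a5 UMI include glycinergic cells in which it was missed.

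Cells assigned to no class held Lrrtm4 at 1731 and 1547 CPM, Nlgn1 at 1581 and 1512 CPM and Nrxn3 at 1460 and 1795 CPM. These levels lay within the range of the inhibitory and excitatory classes for Lrrtm4 and Nlgn1. Single unassigned cells of library 1 ran from 0 to 10120 CPM for Nrxn3.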
